A study of Cricetulus griseus with 24 samples.

Results

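The response of 2 related Chinese hamster ovary (CHO) lines to stationary phase was compared by RNA-seq, to ask which genes and functions respond differently in the methotrexate-amplified line A1 than in its parental clone A0, and which of the lines moves. The comparison uses the 18 libraries of A0 and A1 among the 24 of the series. They come from 14 cultures of 4 groups, namely A0 at exponential phase (4 cultures), A0 at stationary phase (4), A1 at exponential phase (3) and A1 at stationary phase (3). A0 exponential was sequenced as 8 libraries, which were summed over the pairs with the same culture number. The second library is titled RLT for cultures 1 and 2 and Duplicate for cultures 3 and 4. A0 is an antibody-producing clone of the CHO host DG44. It was made by co-transfection of a plasmid with the IgG heavy chain and a plasmid with the light chain and neomycin phosphotransferase. A1 is the progeny of A0 that was selected in methotrexate, a folate antagonist, and it is the higher producer. Both lines carry the same transgenes, and each is represented by a single clone, so amplification and clonal history cannot be told apart. All cultures were batch suspension flasks grown without the replacement of medium. CHO-S, a line that makes no antibody, is used here only as a reference. Its libraries carry CHO-S as their cell line but NDST in their titles, a name that is not explained in the sources used here.

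In batch culture, cells first divide exponentially and then stop as nutrients run down and waste products build up. Mammalian cells meet a shortage of amino acids through the integrated stress response, in which the transcription factor Atf4 induces transporters, aminoacyl-tRNA synthetases and enzymes of amino acid synthesis. An overload of the endoplasmic reticulum (ER) induces its chaperones through the unfolded protein response. Cells that leave the cycle lose the mRNAs of DNA replication and mitosis. In antibody-producing CHO cells these programmes are of interest because secretion loads the ER and because stationary phase is when much of the product is made.

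Counts in genes were 6532373 to 14586630 per library (median 12082263), and the summed A0 exponential cultures held 23065838 to 26584337. The share of reads that could not be aligned moved with the groups, at 3.13% to 4.85% in A0 exponential, 6.43% to 9.41% in A0 stationary, 7.49% to 8.65% in A1 exponential and 10.3% to 11.5% in A1 stationary libraries, and its part in the results was not tested. Levels are given as CPM, the count of a gene scaled to the size of its library with TMM normalization. Of the genes listed as expressed in CHO cells, 5 of 6 were well covered in every culture and Cmah had 1 to 10 counts. Of 10 leukocyte markers, 6 were at 3 counts or fewer in every culture, and of 7 endothelial markers 2 were. The summed level of the leukocyte list was 3.35 to 4.68 CPM in A0 exponential, 19 to 72.9 in A0 stationary, 3.66 to 4.46 in A1 exponential and 10.7 to 13.4 in A1 stationary cultures. Most of this came from Cd68, a lysosomal glycoprotein that is not limited to leukocytes, at 2.32 to 3.33, 17.3 to 67.7, 2.83 to 3.24 and 8.36 to 12.2 CPM in these groups, and Csf1r reached 4.88 CPM, while the defining marker Ptprc had at most 2 counts. Fewer cells that make an mRNA and less of that mRNA in each cell cannot be told apart in these bulk samples.

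Stationary phase changed the RNA of A0 more than that of A1. Of 20953 genes tested, 8429 (40.2%) changed with phase in A0, 4207 (20.1%) up and 4222 (20.1%) down. In A1 3612 (17.2%) changed, 1694 (8.08%) up and 1918 (9.15%) down. The A0 arm has 4 cultures and the A1 arm 3, which bears on these counts and, through noise, on the absolute sizes given below. The lines share an estimate of the spread, so the A1 count also depends on the A0 cultures in the fit. With A0 cultures 1 and 2 alone, 8454 genes changed in A0 and 5846 in A1. With A0 cultures 3 and 4 alone, 7085 changed in A0 and 5204 in A1. Over the 10536 genes with a mean of at least 5 CPM, the median absolute log2 change was 0.346 in A0 and 0.224 in A1, and the change was larger in A0 for 69.1% of them. The directions were shared, with a Pearson correlation of 0.74 and a Spearman correlation of 0.71 between the changes of A0 and A1 across these genes. This is a description across genes, which share libraries and normalization and are not independent replicates.

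The interaction is the change from exponential to stationary phase in A1 minus that in A0, on the log2 scale. It was called with edgeR's quasi-likelihood test at a Benjamini-Hochberg adjusted p under 0.05 for 1873 genes (8.94% of those tested). Of these, 1056 (5.04%) were higher, that is, they rose more or fell less in A1, and 817 (3.9%) were lower. With culture numbers as a block by line, 3435 genes were called. Samples of the same number were alike in A0 but not in A1. For A0 cultures 3 and 4 they were no more alike than samples of the other number. Differences of at least 2-fold were found for 286 genes (1.36%) in the higher and 203 (0.969%) in the lower direction. Among genes of at least 5 CPM, 1669 (15.8%) were called. The higher genes were mainly genes that fell in A0, as 1020 of the 1056 had a fitted change below 0 there, with a median of -0.90 in A0 against -0.12 in A1. The lower genes were mainly genes that rose in A0, which was the case for 800 of 817, with a median of 0.82 in A0 against 0.094 in A1.

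**Figure D1:**
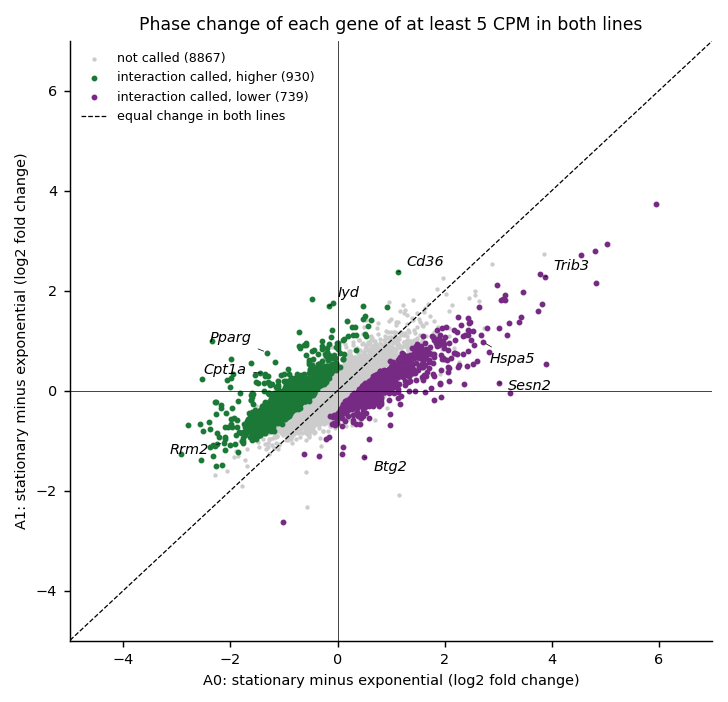
Change from exponential to stationary phase in A0 (x axis) and in A1 (y axis), in log2 fold change, for the 10536 genes of at least 5 CPM. Each point is a gene, green and purple points are the 930 and 739 genes called higher and lower for the interaction, and the dashed line is an equal change in both lines. The called genes lie mostly on the side of the line where the change in A0 is farther from 0.

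Genes were then sorted by the line in which the phase change itself passed the test. Of the 1873 genes, 1111 (59.3%) changed in A0 alone and 510 (27.2%) changed in both lines in the same direction with the larger change in A0. A change in A1 alone was found for 153 genes (8.17%), and 14 (0.748%) changed in both with the larger change in A1. The lines changed in opposite directions for 58 genes (3.10%), and 27 passed in neither line alone. Among all genes tested, 26.4% changed in A0 alone and 3.40% in A1 alone. The fitted change was larger in A0 for 86.7% of the called genes, beside 61.4% of all genes tested. Which line passes the test is not itself a test of the difference, which the interaction provides.

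**Figure D2:**
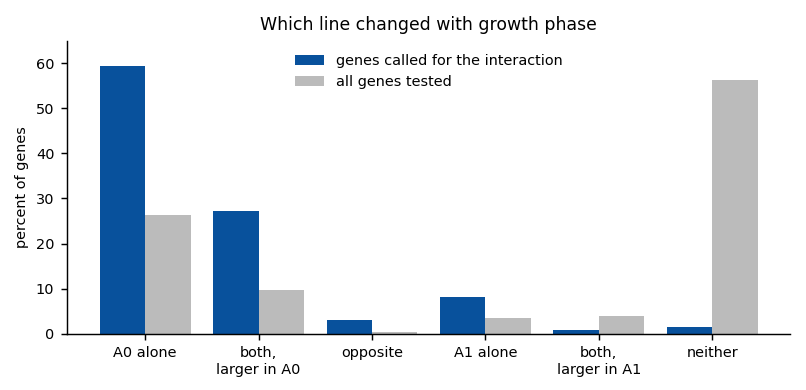
Percent of genes (y axis) by the line in which the phase change passed the test (x axis), for the 1873 genes called for the interaction (blue) and for all 20953 genes tested (grey). A0 alone is the most frequent class of the called genes at 59.3%, against 26.4% of all genes.

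The number of calls depends on single cultures. Leaving out a culture at both phases gave 570 calls without A1 culture 2, 741 without A1 culture 3, 1006 without A1 culture 1, 1118 without A0 culture 2 and 2987 without A0 culture 4. Leaving out a single library gave 1003 calls without A1 stationary culture 2, 1165 without A1 exponential culture 3 and 1221 without A1 exponential culture 2. In each of these fits, 1872 or all 1873 of the genes kept their direction. The genes were chosen in the full fit, which shares most cultures with each of these, so a kept direction is no independent support. In all 14 fits without 1 library, 864 genes were called. The largest genes and those of the response classes were taken from these, as set out in the methods. Members of gene lists were taken by their p and need not be among them. Many list members were called in all 14 fits, but others in fewer. Ndufv2 was called in 4, Hdac4, Psmb3 and Gjb5 in 5, and Fasn in 6. Dnmt1, Srebf2, Pgls and Bhlhe41 were called in 7 and Pc in 8.

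ER chaperones and genes of the unfolded protein response rose more in A0, and by the list median A1 exponential cultures already stood above A0 exponential ones. Of 35 members tested, 14 (40%) were called for the interaction, all lower, beside 8.94% of all genes tested and 15.8% of those of at least 5 CPM, which are the shares to hold each list below against. Of these 35, 26 rose with phase in A0 against 10 in A1. The median phase change of the list was 0.55 in A0 and 0.18 in A1, beside 0.021 and 0 over all genes tested. Hspa5, which encodes BiP, the main chaperone of the ER lumen, was at 2505, 2465, 2430 and 2633 CPM in the A0 exponential cultures and 20170, 20480, 13360 and 11650 CPM in the A0 stationary ones. It was at 3809, 4595 and 3794 CPM in the A1 exponential cultures and 7567, 7683 and 8769 CPM in the A1 stationary ones. All 4 A0 stationary cultures lay above every A1 culture, and A1 started from a level above that of A0 (log2 interaction of -1.73, SE 0.20, adjusted p = 1.25e-05).

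Other members of the list were called lower too, from differing starting levels. Hsp90b1, the ER form of Hsp90, went from 2912 ± 171 to 7191 ± 955 CPM in A0 and from 4864 ± 497 to 6570 ± 437 CPM in A1 (values after ± are SDs over the 4 or 3 cultures), with an interaction of -0.87. The disulfide isomerase Pdia4 went from 282 ± 27.4 to 833 ± 159 CPM in A0 and from 323 ± 28.4 to 464 ± 34.9 CPM in A1, with an interaction of -1.04. The nucleotide exchange factor Hyou1 had an interaction of -1.02, Herpud1, which acts in ER-associated degradation, -1.0, and its partner Sel1l -0.91. The lectin chaperones Calr and Canx rose by 0.53 and 0.39 in A0, while their fitted changes in A1 were -0.0065 and -0.018. The sensors Ern1 (Ire1) and Atf6 had interactions of -0.73 and -0.62, and their A1 exponential means of 43.8 and 107.6 CPM did not lie above those of A0, 46.2 and 122.4 CPM. Relative to the mean of the A0 exponential cultures, the median of the 34 members of at least 5 CPM was 0.46 to 0.72 in A0 stationary, 0.30 to 0.34 in A1 exponential and 0.32 to 0.42 in A1 stationary cultures (log2 scale). The ranges of the 2 A1 groups overlapped, whereas the A0 stationary cultures all lay above both.

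For N-glycan synthesis, a further step of antibody processing, the share called was near that of all genes of at least 5 CPM. Of 33 members, 5 were called, all lower (15.2% beside 15.8%), with A0 cultures 1 and 2 alone 5 were higher and 10 lower, and the median change was 0.041 in A0 and -0.06 in A1. They were the glucosidase subunit Ganab (-0.78), the oligosaccharyltransferase subunit Rpn2 (-0.59), the mannosyltransferases Alg2 (-0.54) and Alg12 (-0.65) and the branching enzyme Mgat5 (-0.49). Rpn2 rose by 0.33 in A0 and fell by 0.25 in A1.

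Target genes of Atf4, the transcription factor of the integrated stress response, rose in both lines, and a subset of them rose further in A0. Of 26 Atf4 target genes tested, 19 rose in A0 and 15 in A1, with medians of 1.27 in A0 and 0.98 in A1, and 6 (23.1%) were called lower for the interaction. With A0 cultures 1 and 2 alone, the medians were 0.93 in A0 and 0.99 in A1. Atf4 itself rose by 1.33 in A0 and 1.17 in A1 and was not called (interaction -0.17). Asns (asparagine synthetase), Nupr1 and Chac1 were not called either, with interactions of -0.37, -0.096 and -0.37. Among the called members, Sesn2 (sestrin 2, a leucine-binding inhibitor of mTORC1 that Atf4 and p53 both induce) had one of the largest negative interactions. It was at 8.28, 10.4, 10.7 and 10.7 CPM in the A0 exponential cultures and 81.4, 95.6, 73.7 and 73.2 CPM in the A0 stationary ones. It was at 41.8, 48 and 52 CPM in the A1 exponential cultures and 60, 45.5 and 53.1 CPM in the A1 stationary ones. A0 went from below every A1 culture to above every one, and the A1 groups overlapped (log2 interaction of -2.86, SE 0.17, adjusted p = 5.08e-10).

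Trib3, a pseudokinase induced by stress, was at 13.1, 14.5, 11.8 and 14.6 CPM in the A0 exponential cultures and 233, 223, 169 and 164 CPM in the A0 stationary ones. In A1 it was at 36.2, 45.8 and 43.5 CPM at exponential and 221, 194 and 193 CPM at stationary phase. The stationary levels of the lines overlapped and the exponential levels did not (log2 interaction of -1.60, SE 0.17, adjusted p = 4.29e-06). Ddit3 (Chop) went from 24.3 ± 3.29 to 333 ± 65.8 CPM in A0 and from 42.3 ± 8.18 to 214 ± 14.4 CPM in A1, with an interaction of -1.44, and Atf3 had an interaction of -0.87. For Slc7a11, the cystine transporter, the A0 cultures went from 30.7, 33.5, 63 and 56.1 to 103, 120.5, 202 and 216 CPM and the A1 cultures from 92.8, 90.8 and 96.5 to 117, 107 and 119 CPM. All A1 exponential cultures were above all A0 exponential ones (log2 interaction of -1.52, SE 0.31, adjusted p = 0.00287).

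Aminoacyl-tRNA synthetases, which charge tRNAs with amino acids, rose more in A0. Of the 20 cytosolic enzymes, 10 (50%) were called, all lower, and 14 rose in A0 against 10 in A1, with medians of 0.67 in A0 and 0.28 in A1. Nars, the asparaginyl enzyme, was at 154, 154, 131 and 123 CPM in the A0 exponential cultures and 423, 416, 357 and 372 CPM in the A0 stationary ones. The A1 cultures had 158, 185 and 157 CPM at exponential and 276, 254 and 266 CPM at stationary phase. Both lines rose without overlap, A0 to the higher level (log2 interaction of -0.81, SE 0.14, adjusted p = 0.000628). Interactions of the other called enzymes ran from -0.67 (Sars) and -0.65 (Lars) to -0.39 (Tars). Across the list the stationary cultures stood at 0.62 to 0.74 in A0 and 0.24 to 0.27 in A1 relative to A0 exponential, and the exponential cultures of both lines overlapped.

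Amino acid transporters behaved in the same way, with 5 of 22 called lower (22.7%) and medians of 0.66 in A0 and 0.27 in A1. The glutamine transporter Slc1a5 went from 80.9 ± 8.91 to 190.3 ± 8.84 CPM in A0 and from 93 ± 6.79 to 119 ± 3.8 CPM in A1, with an interaction of -0.88. The glycine transporter Slc6a9 and the neutral amino acid transporter Slc1a4 had interactions of -1.18 and -1.12, and Slc3a2, the shared heavy subunit, -0.72. Slc7a5, its leucine-carrying partner, was not called (-0.37). Slc3a2 and Slc7a11 stand among both the Atf4 targets and the transporters.

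**Figure D3:**
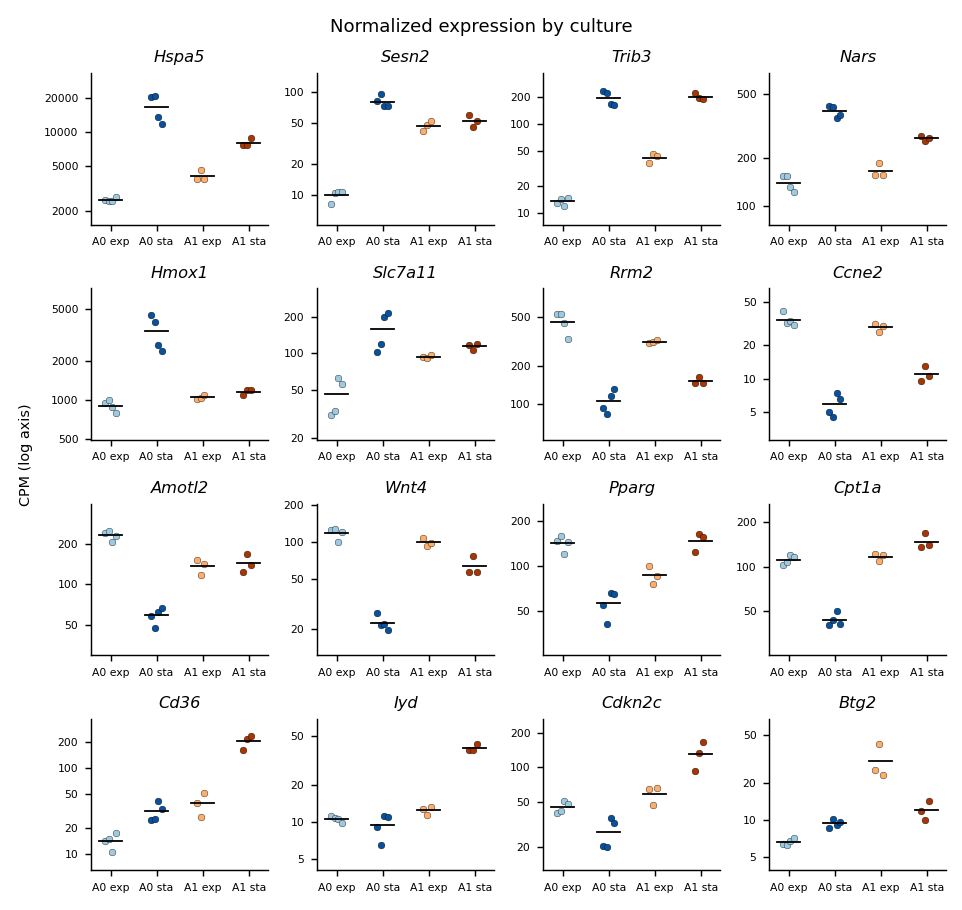
Normalized level (CPM, log axis) of 16 genes in each culture of A0 and A1 at exponential (exp) and stationary (sta) phase. Points are cultures and bars are group means. For Hspa5 the A0 stationary cultures reach 11650 to 20480 CPM and the A1 stationary ones 7567 to 8769 CPM, while Pparg, Cpt1a and Cdkn2c fall in A0 and rise in A1.

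Genes of oxidative stress defence under Nrf2 were divided. Of 30 tested, 8 (26.7%) were called, all lower, while the list medians were near 0 (0.019 in A0 and -0.14 in A1). Heme oxygenase (Hmox1), which degrades heme, was at 948, 994, 883 and 794 CPM in the A0 exponential cultures and 4521, 4019, 2639 and 2404 CPM in the A0 stationary ones. In A1 it stayed between 1027 and 1203 CPM in all 6 cultures (log2 interaction of -1.77, SE 0.21, adjusted p = 1.85e-05). Thioredoxin reductase Txnrd1 (-1.03), the export pump Abcc1 (-0.96), sulfiredoxin Srxn1 (-0.83) and peroxiredoxin Prdx1 (-0.68) rose in A0, and their fitted changes in A1 were between -0.057 and 0.31. Gclm, of glutathione synthesis, differed from these, since it fell by 0.66 in A1 with a fitted change of -0.095 in A0.

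The p53 target genes separated in both directions of movement. Of 26 tested, 12 (46.2%) were called, 11 lower and 1 higher, 9 rose in A0 and 9 fell in A1, and the medians were 0.095 in A0 and -0.26 in A1. Rising mainly in A0 were Gadd45a (listed as LOC103159266 and named from RefSeq), a growth arrest gene with an interaction of -1.95, the kinase Plk2 (-2.05), Tp53inp1 (-1.09) and Sesn2. Plk2 was at 47, 46.6, 58.7 and 61 CPM in the A0 exponential cultures and 382, 393, 371 and 375 CPM in the A0 stationary ones. Across A1 it was at 158, 209.7 and 142 CPM at exponential and 363, 225 and 289.5 CPM at stationary phase, so that A1 was above A0 at exponential phase and below it at stationary phase in every culture. Falling in A1, with no change that passed the test in A0, were Ccng1 (-1.26), Aen (-1.12), Mdm2 (-0.54) and Cdkn1a (p21, -0.54). Their fitted changes in A0 were between 0.044 and 0.11. Btg2, an antiproliferative gene, moved in opposite directions, from 6.45, 6.26, 6.76 and 7.17 to 8.71, 10.2, 9.16 and 9.57 CPM in A0 and from 25.8, 42.1 and 23.2 to 11.9, 9.95 and 14.4 CPM in A1 (log2 interaction of -1.83, SE 0.24, adjusted p = 7.13e-05). Relative to A0 exponential, the 20 members of at least 5 CPM stood at 0.27 to 0.29 in A1 exponential and -0.08 to -0.039 in A1 stationary cultures. Several of these genes are also induced by Atf4 or by growth factors.

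Genes of the cell cycle made up the other main group, and here A0 fell further. All 27 called genes of DNA replication among 43 tested (62.8%) were higher for the interaction, as were all 20 called genes of mitosis and the kinetochore among 43 (46.5%). Of the replication genes 40 fell in A0 and 30 in A1, with medians of -1.24 in A0 and -0.59 in A1, and of the mitotic genes 42 fell in A0 and 27 in A1, with medians of -0.91 in A0 and -0.47 in A1. Rrm2, a subunit of ribonucleotide reductase, was at 526, 519.6, 440.1 and 331 CPM in the A0 exponential cultures and 91.6, 81.9, 115 and 130.1 CPM in the A0 stationary ones. The corresponding A1 values were 305, 313 and 321 CPM at exponential and 145, 164 and 146 CPM at stationary phase. Both lines fell without overlap, A0 from the higher to the lower level (log2 interaction of 1.07, SE 0.20, adjusted p = 0.00133).

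Cyclin E2 (Ccne2), which starts S phase, went from 34.4 ± 4.73 to 5.83 ± 1.35 CPM in A0 and from 29.3 ± 2.52 to 11 ± 1.9 CPM in A1, with an interaction of 1.16. The helicase subunits Mcm4, Mcm5, Mcm6 and Mcm7 had interactions of 0.88, 0.93, 0.71 and 0.68, the sliding clamp Pcna 0.92, the polymerase subunit Pole2 1.08 and the transcription factors E2f1 and E2f2 0.74 and 1.31. Of the mitotic genes, the kinetochore subunit Spc24 fell by 1.12 in A0 and had a fitted change of 0.078 in A1. Cyclin A2 (Ccna2, 0.82), survivin (Birc5, 0.97), the polo kinase Plk1 (0.76) and the proliferation marker Mki67 (1.02) were called too. Stathmin (Stmn1), a microtubule destabilizer that dividing cells express, was at 379.5, 362, 392 and 273 CPM in the A0 exponential cultures and 82.7, 77, 151 and 152 CPM in the A0 stationary ones, and in A1 between 284 and 326 CPM in all 6 cultures (log2 interaction of 1.56, SE 0.25, adjusted p = 0.000328). Relative to A0 exponential, the replication list stood at -1.61 to -1.02 in A0 stationary, -0.25 to -0.17 in A1 exponential and -0.78 to -0.66 in A1 stationary cultures. Each phase was sampled at 1 time in culture, and how far each line had gone into arrest at that time and how it responds to arrest cannot be told apart.

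Inhibitors of the cell cycle differed among themselves. Cdkn2c (p18, an inhibitor of Cdk4 and Cdk6) was at 39.5, 41.5, 50.6 and 47.1 CPM in the A0 exponential cultures and 20.1, 19.9, 35.8 and 32.5 CPM in the A0 stationary ones. It was at 64.9, 46.2 and 65.3 CPM in the A1 exponential cultures and 92.8, 135 and 168 CPM in the A1 stationary ones. It fell in A0 and rose in A1, with no overlap between the phases in either line (log2 interaction of 1.89, SE 0.26, adjusted p = 0.000108). Cdkn1b (p27) fell by 0.61 in A0 and had a fitted change of 0.17 in A1. Of the 17 genes of the G1 list, 5 were higher and 1, Cdkn1a, was lower. Cyclin D1 (Ccnd1) and Cdk2 fell in both lines and further in A0, with interactions of 0.44 and 0.60, and the pocket protein Rbl1 had one of 0.65.

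**Figure D4:**
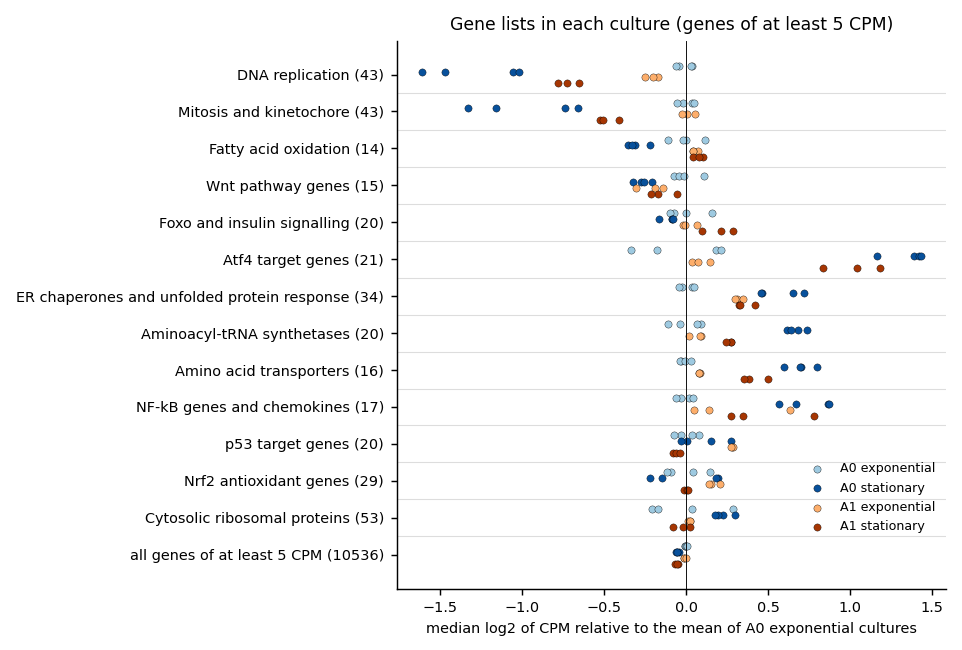
Median level of 13 gene lists and of all genes of at least 5 CPM in each culture, as log2 of CPM relative to the mean of the A0 exponential cultures (x axis), with the number of genes after each name. Each point is a culture, coloured by line and phase. The A0 stationary cultures stand lowest for DNA replication and highest for aminoacyl-tRNA synthetases, and for the ER list the A1 cultures of both phases lie together between the A0 groups.

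The called genes of fatty acid oxidation were all higher for the interaction, and Cpt1a was called in opposite directions in the lines. Of 15 genes tested, 6 (40%) were called, and the medians were -0.28 in A0 and 0.14 in A1. Cpt1a, which brings fatty acids into mitochondria and limits the rate of the pathway, was at 103, 108, 119 and 117 CPM in the A0 exponential cultures and 40, 43.2, 50.2 and 40.8 CPM in the A0 stationary ones. It was at 122, 109.6 and 120 CPM in the A1 exponential cultures and 136, 168 and 140.4 CPM in the A1 stationary ones. It fell in A0 and rose in A1, and the phases did not overlap in either line (log2 interaction of 1.70, SE 0.14, adjusted p = 8.3e-08). The carnitine carrier Slc25a20 (0.74) and the trifunctional enzyme subunit Hadha (0.51) rose in A1 alone, while Acadm (0.64), Acadvl (0.58) and Hadhb (0.45) fell in A0 alone.

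Pparg, a nuclear receptor that binds fatty acids and drives lipid storage genes, was among the largest positive interactions. It was at 146, 157, 120 and 144 CPM in the A0 exponential cultures and 54.9, 41, 66 and 65.3 CPM in the A0 stationary ones. It was at 99.7, 75.7 and 86.2 CPM in the A1 exponential cultures and 125, 163 and 155 CPM in the A1 stationary ones. It fell in A0 and rose in A1, again with no overlap between phases (log2 interaction of 2.08, SE 0.19, adjusted p = 5.8e-07). Some other genes of lipid and pyruvate use rose in both lines and more in A1. Cd36, a fatty acid receptor, went from 14.4 ± 3.0 to 31.3 ± 7.75 CPM in A0 and from 39 ± 11.7 to 202 ± 35.8 CPM in A1 (interaction 1.25), and Pdk4, which blocks the entry of pyruvate into the citric acid cycle, went from 22 ± 1.51 to 31.2 ± 2.09 CPM in A0 and from 22.2 ± 1.04 to 62.9 ± 5.11 CPM in A1 (interaction 0.99). Angptl4, an inhibitor of lipoprotein lipase, had an interaction of 2.13 at a low level of 1.84 CPM on average. In fatty acid synthesis, 2 of 13 genes were called, fatty acid synthase (Fasn, -0.62) and acetyl-CoA carboxylase (Acaca, -0.58), both lower. Of 24 sterol synthesis genes 13 fell in A1 and 8 in A0, with medians of -0.41 in A1 and -0.12 in A0, and 1 was higher for the interaction (Sqle, listed as LOC100764834) and 2 were lower (Msmo1 and Srebf2), 12.5% in all. With A0 cultures 3 and 4 alone 9 of them were lower, and with cultures 1 and 2 alone 5.

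Further genes that moved in A1 alone were Iyd (iodotyrosine deiodinase), at 11.1, 10.8, 10.6 and 9.79 and 9.0, 6.45, 11.2 and 10.9 CPM in the A0 exponential and stationary cultures and at 12.6, 11.3 and 13.2 and then 38.3, 38.1 and 43.3 CPM in A1 (log2 interaction of 1.85, SE 0.20, adjusted p = 3.9e-06). Pcp4l1, a small calmodulin-binding protein, went from 9.71 ± 1.82 to 6.82 ± 4.91 CPM in A0 and from 13.7 ± 2.48 to 48.8 ± 7.4 CPM in A1 (interaction 2.32). Of the genes that rose in both lines and more in A1, the matrix protein fibronectin (Fn1) went from 378 ± 15.4 to 527 ± 121 CPM in A0 and from 468 ± 8.45 to 1269 ± 124 CPM in A1 (interaction 0.96), and the matrix crosslinking enzyme Loxl2 had an interaction of 1.20. Dusp1, the phosphatase that shuts off MAP kinases, fell in A0 from 47.8, 48, 58.7 and 46.4 to 23.2, 23.1, 40.4 and 34.7 CPM and rose in A1 from 21.8, 17 and 18.9 to 30.9, 38.6 and 36.9 CPM (log2 interaction of 1.61, SE 0.22, adjusted p = 0.000102).

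Inflammatory genes under NF-kB rose more in A0. Of 24 tested, 8 (33.3%) were called, 7 lower and 1 (Csf1) higher, with medians of 0.80 in A0 and 0.18 in A1. Relb, a subunit of NF-kB, went from 10.6 ± 0.66 to 28.9 ± 1.64 CPM in A0 and from 12.6 ± 3.33 to 16.1 ± 1.96 CPM in A1 (interaction -1.10), Nfkb2 had an interaction of -0.70, the inhibitors Nfkbia and Tnfaip3 -0.84 and -0.70, and the cytokine Lif -0.82. The chemokines Cxcl1 (-3.36) and Cxcl3 (-2.68) were called with larger differences, but not in every fit without 1 library, and were named after their values were seen. A1 exponential culture 2 stood apart here, with a list median of 0.63 against 0.048 and 0.14 in the other A1 exponential cultures. A1 stationary culture 1 did too, with 0.78 against 0.27 and 0.34, inside the A0 stationary range of 0.57 to 0.87. The protease Mmp9, an NF-kB target, was likewise at 37.6, 71.6 and 31.1 CPM in those cultures, and its interaction was -1.99. Without A1 culture 2 at both phases it was -1.35 and did not pass.

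Among growth factor pathways, 5 of 22 Wnt genes were called, all higher (22.7%), with medians of -0.39 in A0 and 0.087 in A1. The ligand Wnt4 was at 125, 128, 99.9 and 120 CPM in the A0 exponential cultures and 26.6, 21.4, 22 and 19.7 CPM in the A0 stationary ones. The A1 cultures had 107, 92.8 and 98.3 CPM at exponential and 57.3, 76.7 and 57.6 CPM at stationary phase, a smaller fall from a similar start (log2 interaction of 1.77, SE 0.17, adjusted p = 5.8e-07). The feedback gene Axin2 (1.01), the repressor Tcf7l1 (1.30), the co-receptor Lrp5 (0.42) and Dkk3 (0.72) were the others. In the TGF-beta list 5 genes were higher and 1 lower of 27, among them the inhibitory Smad6 (1.69), follistatin (Fst, 1.12) and the receptors Tgfbr2 (0.46) and Tgfbr1 (-0.85). Of 15 Notch genes only Lfng was called (1.71).

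Of 24 genes of Foxo and insulin signalling, 6 were higher and 2 lower (33.3%), with medians of -0.13 in A0 and 0.092 in A1. The higher ones included Igfbp4 (1.11), the coactivator Cited2 (1.06) and Pdk4, and the lower ones were the insulin receptor (Insr, -0.56) and Txnip (-0.73). Of 26 mTORC1 genes, Rps6kb1 was higher (0.56) and Eif4ebp1 (-0.60) and Sesn2 were lower. Of 28 AP-1 and immediate early genes 6 were lower and 2, Fosl2 (0.94) and Dusp1, higher. In the interferon list 3 of 28 were higher, among them Usp18 (0.89) and the peptide transporter Tap2 (0.92), and Mx1 (-0.82) and Ifi35 (-0.66) were lower. Among hypoxia-inducible genes 2 of 30 were higher (Adm and Angptl4) and 3 lower.

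The Creb family includes Creb1, which the study examined as a candidate regulator of the CMV promoter of the transgenes. Of 14 members 2 were called, Crem lower (-0.67) and the coactivator Crtc2 higher (0.57). This is 14.3%, beside 8.94% of all genes and 15.8% of those of at least 5 CPM. Of the 14 fits without 1 library, Crem was called in 4 and Crtc2 in 2. Creb1 went from 102 to 86.7 CPM in A0 and from 79.8 to 84.2 CPM in A1 on average, and its interaction of 0.31 (SE 0.16) did not pass (adjusted p = 0.26). Of 16 histone deacetylases and sirtuins only Hdac4 was called (-0.49), from 70.2 ± 9.81 to 163 ± 15.8 CPM in A0 and from 59.4 ± 2.89 to 98.5 ± 9.71 CPM in A1. Of 29 enzymes of DNA and histone methylation 3 were higher, the maintenance methyltransferase Dnmt1 (0.61), Suv39h1 (0.69) and Eed (0.49), all of which fell in A0.

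For cytosolic ribosomal proteins the share called was near that of all genes of at least 5 CPM. Of 53 tested, 25 rose in A0 and 2 fell in A1, 9 (17% beside 15.8%) were called lower for the interaction, and the medians were 0.23 in A0 and 0.036 in A1. Rpl38, Rpl35 and Rpl10a had interactions of -0.54, -0.54 and -0.52. The A0 exponential cultures differed among themselves for this list, from -0.21 to 0.28 around their mean, a spread wider than the difference between the medians. The count depended on the A0 libraries, with 11 higher and 16 lower for A0 cultures 1 and 2 alone, 24 lower for cultures 3 and 4 alone and 26 lower for the first A0 libraries only. These genes have many near-identical processed copies, so their counts are uncertain. In ribosome biogenesis 1 of 36 was higher (Ubtf, 0.61) and 3 lower, including Nop16 (-0.67), and of the 10 genes of Myc and its partners edgeR called 0, with 7 at an unadjusted p under 0.05 and 2 called by DESeq2.

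Among genes of protein breakdown, the lysosomal and autophagy list was called mainly in the lower direction. For proteasome subunits the share called was near that of all genes tested. Of 40 lysosomal and autophagy genes 9 were lower and 2 higher (27.5%), and 17 rose in A0 against 11 in A1. The sialidase Neu1 (-0.91), the proton pump subunit Atp6v1b2 (-0.66), Gabarapl1 (-0.71), acid glucosidase (Gaa, -0.58) and cathepsin B (Ctsb, -0.53) were lower, and cathepsin K (Ctsk, 1.34) and Hexa (0.54) higher. Of 32 proteasome subunits 20 fell in A1 and 10 in A0, and 3 were called, all lower (Psma7, -0.53, Psmb3, -0.56, Psmd7, -0.51). This is 9.38%, beside 8.94% of all genes tested and 15.8% of those of at least 5 CPM. With A0 cultures 1 and 2 alone, 3 were higher and 7 lower. Among heat shock chaperones Cryab was higher (1.37) and Hspb8 lower (-0.76) of 20.

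In central metabolism the calls were spread over several pathways. In glycolysis 5 of 18 genes were lower (27.8%), with Pfkfb4 (-1.51), hexokinase 2 (Hk2, -0.53) and aldolase (Aldoa, -0.48) among them. In the pentose phosphate pathway 2 of 7 were lower, among them Pgls (-0.50). In the citric acid cycle list 2 of 27 were higher, Pdk4 and pyruvate carboxylase (Pc, 0.70), and 2 lower. Of 28 subunits of the respiratory chain only Ndufv2 was called (0.47), although 17 fell in A0 and 10 in A1. In the folate and purine list 2 of 33 were higher, Ggh and Amt (0.89), and 2 lower, among them Aprt (-0.57). Ggh, the enzyme that trims folate and antifolate polyglutamates, fell further in A0, from 60, 59.6, 42.2 and 42.2 to 7.56, 6.71, 12.7 and 11.8 CPM against 46.1, 40.4 and 46.4 to 20.8, 29.1 and 27.8 CPM in A1 (log2 interaction of 1.62, SE 0.25, adjusted p = 0.000219).

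Among genes of the cell surface and matrix, 7 of 34 collagens, laminins and integrins were higher and 4 lower. Col6a1 fell in A0 from 243, 252, 185 and 198 to 92.1, 90.9, 90 and 92.8 CPM and was at 176, 117 and 149 and 135, 161 and 180 CPM in the A1 exponential and stationary cultures (log2 interaction of 1.37, SE 0.18, adjusted p = 4.14e-05). Integrin alpha V (Itgav, 0.64) was higher, and integrin beta 1 (Itgb1, -0.41) lower. Col4a1 was called as lower from a single library, with 553 counts in A1 exponential culture 1 and 4 to 67 in all others. Mmp9 and Mmp3 (listed as LOC100754565, -0.91) were lower and their inhibitor Timp2 (0.80) higher. In the cytoskeleton list 5 of 28 were higher, Stmn1, vimentin (Vim, 0.63), caldesmon (Cald1, 0.51), Lmna (0.49) and Tubb (0.66). The connexin Gjb5 (0.57) fell further in A0, and of the 17 clock genes Nfil3 (-0.98) and Cry1 (-0.68) were lower and Bhlhe41 (0.85) higher.

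The rule for naming also took the 12 largest interactions of each sign among its eligible genes, several of which are on no list. Of the positive ones, Ranbp3l was at 71.8, 70, 159 and 260.3 CPM in the A0 exponential cultures and 9.96, 8.72, 48.5 and 41.8 CPM in the A0 stationary ones. For A1 the values were 10.7, 8.41 and 7.8 CPM at exponential and 13.7, 21.2 and 17.9 CPM at stationary phase. The level in A0 differed between cultures 1 and 2 and cultures 3 and 4 at both phases (log2 interaction of 3.34, SE 0.69, adjusted p = 0.00303). Dtna, a dystrobrevin of the dystrophin complex, went from 7.8 ± 1.28 to 1.33 ± 0.647 CPM in A0 and from 8.0 ± 0.107 to 9.37 ± 1.1 CPM in A1 (interaction 2.77), and Amotl2, an angiomotin of the Hippo pathway, went from 234 ± 19.1 to 58.5 ± 8.31 CPM in A0 and from 137 ± 18 to 144 ± 23.7 CPM in A1 (interaction 2.08). The adaptor Lat (2.63), Cdc42ep2 (2.30), carbonic anhydrase 3 (Ca3, 2.29), dermatopontin (Dpt, 2.25), the Pcna-associated factor Kiaa0101 (2.11), adrenomedullin (Adm, 2.04) and the chloride transporter Clcn5 (1.90) fell in A0, and their fitted changes in A1 were between -0.69 and 0.63.

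Of the 12 negative ones, Clic5 was at 2.15, 2.4, 1.2 and 1.07 CPM in the A0 exponential cultures and 19.4, 24.8, 11.8 and 8.43 CPM in the A0 stationary ones. The A1 level was between 1.03 and 3.79 CPM in all 6 cultures, and its phases overlapped (log2 interaction of -3.27, SE 0.57, adjusted p = 0.000803). Ostn (osteocrin) went from 0.729 ± 0.349 to 24.4 ± 3.5 CPM in A0 and from 1.34 ± 0.413 to 10 ± 3.02 CPM in A1 (interaction -2.10), and the lipase Abhd6 went from 3.52 ± 0.981 to 83.1 ± 27.3 CPM in A0 and from 7.06 ± 1.54 to 46.4 ± 7.91 CPM in A1 (interaction -1.84), so both rose strongly in each line and more in A0. Col8a1, a short-chain collagen, went from 25.2 ± 4.33 to 135 ± 47.4 CPM in A0 and from 21.2 ± 2.5 to 30.1 ± 5.66 CPM in A1 (interaction -1.93). Mro (-2.22), Cnksr1 (-2.06), Mdga1 (-2.05) and Prss56 (-2.01) also rose in A0, with fitted changes of -0.13 to 1.11 in A1.

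The A0 cultures formed 2 sets, with cultures 1 and 2 apart from cultures 3 and 4, and the interaction was fitted with each set alone. Of the 1873 genes, 1826 were also called in the same direction with cultures 1 and 2 and 1277 with cultures 3 and 4, 1245 were called with both, and none changed direction. Both fits use the A1 cultures and part of the A0 cultures by which these genes were chosen, so they are not independent of that choice. The difference was larger with cultures 1 and 2 for 1444 genes, with a median absolute interaction of 0.846 against 0.617. For DNA replication, 40 of 43 genes were called with cultures 1 and 2 and 20 with cultures 3 and 4, with A0 medians of -1.60 and -1.05. For mitosis the counts were 41 and 15. For Atf4 targets the order turned, with 6 of 26 genes lower and 2 higher with cultures 1 and 2, and 17 lower with cultures 3 and 4. The A0 medians were 0.93 and 1.67, beside an A1 median of 0.99 in both fits. With cultures 1 and 2 the list median of A0 was thus not above that of A1. The median interaction was -0.00054 there and -0.60 with cultures 3 and 4. The ER list gave 23 and 13 lower genes of 35, and fatty acid oxidation 9 and 6 higher genes of 15. Of the 20 aminoacyl-tRNA synthetases, 12 were lower and 2 higher with cultures 1 and 2, and 12 lower and 0 higher with cultures 3 and 4. The exponential cultures of the first set hold the libraries titled RLT and those of the second set the libraries titled Duplicate, while the stationary cultures have 1 library each. With the RLT libraries left out 2357 genes were called, and with the first libraries only 2359. The meaning of RLT is not given in the sources used here.

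The phase change of CHO-S was set beside those of A0 and A1. Of the 1669 called genes of at least 5 CPM, the phase change of CHO-S was nearer to that of A1 for 74.1%, and for 68.9% without a shallow CHO-S stationary library of 1038026 counts, beside 61.8% and 58.9% of all genes of this level. The called genes were chosen for a gap between A0 and A1, mostly with the larger change in A0. Any small change in CHO-S is therefore mostly nearer to A1 among them. With all CHO-S libraries, its medians were -0.14 for the higher and 0.13 for the lower genes. The share of all genes does not carry this choice, so the shares cannot tell which line departs. The lists differed. For DNA replication the median change in CHO-S (without the shallow library) was -1.10, near the -1.24 of A0, and for mitosis it was -0.80. For fatty acid oxidation it was 0.13, near the 0.11 of A1. For the Atf4 targets of this level it was -0.068 and for aminoacyl-tRNA synthetases -0.37, below both lines, and for the ER list 0.35, between them. CHO-S belongs to another CHO lineage than DG44, so these are values side by side with no test.

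**Figure D5:**
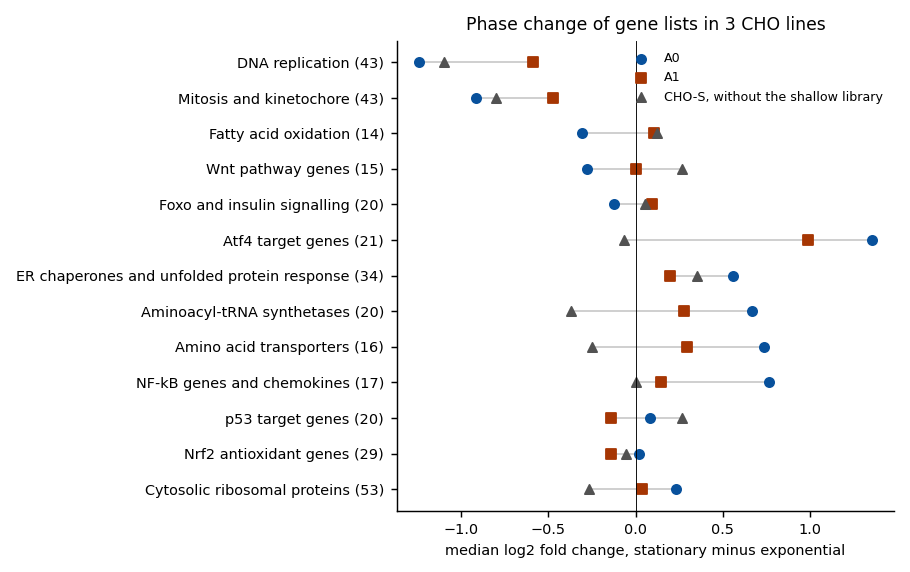
Median change from exponential to stationary phase (x axis, log2 fold change) of 13 gene lists in A0, A1 and CHO-S (without the shallow library), for members of at least 5 CPM, whose number follows each name. For DNA replication CHO-S lies near A0 (-1.10 against -1.24), and for fatty acid oxidation near A1 (0.13 against 0.11).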

How the data were processed

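RNA of CHO cells was sequenced after TruSeq Stranded mRNA preparation. The authors aligned the reads with STAR 2.5.4b, counted them per gene with HTSeq 0.7.2 and deposited raw counts without normalization, and the genome annotation and strand setting of the counting are not given in the sources used here, so overlapping and antisense genes are uncertain. The table holds 28037 genes and 5 summary lines of HTSeq, left out of totals and tests. In the A0 and A1 libraries these lines held 3.13% to 11.5% of reads as not aligned, 11.9% to 18.4% as outside genes and 12.7% to 14.8% as not unique in position. For 24186 genes a RefSeq entry (assembly CriGri-PICRH-1.0) matched by gene ID, and names were taken from the table or, for LOC symbols, from RefSeq.

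The A0 exponential libraries of the same culture number were summed, which gave 14 cultures in 4 groups. A gene entered the test if 2 or more libraries had 1 count or more and its counts varied. The model of the 4 group means was fitted in edgeR 4.0.16 under R 4.3.3 with TMM factors, its contrasts were tested by quasi-likelihood (two-sided), and p-values were adjusted over all 20953 genes by the method of Benjamini and Hochberg. SEs were derived from the log2 fold change and the F statistic. DESeq2 1.42.0 and limma 3.58.1 (voom) served as alternatives, beside other scalings, filters, sets of libraries, a replicate block and fits without 1 library or culture. Tables and figures were made with Python 3.11.15, numpy 2.4.6 and pandas 2.3.3. On simulated counts with 200 changed genes among 20408, edgeR recovered 81% of interactions of 1 and 98% of those of 2 on the log2 scale. It made 10 false calls, and called 0 of 20399 genes with no change simulated. The simulated counts held no effect of culture number.

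The members, the 45 lists of functions and the rule for named genes were chosen with earlier results of these data known, so list counts and medians are descriptions without a test. By the rule, genes with an adjusted p under 0.05 in the full fit and in all 14 fits without 1 library, at least 5 CPM on average and a symbol other than LOC gave 701 genes, of which the 12 largest of each sign and the 3 largest of each response class were named. To these came the 3 called members of each list with the smallest p, which made 133 genes. Other called members are given as examples of their list, and some genes are not reported here. The methods describe triplicate cultures and the labels number cultures, but nothing says that they were started independently, so p-values measure the spread between these cultures, which may be partly technical.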

Additional observations from a re-analysis of the deposited data

Results flagged for a closer look

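The response to stationary phase differed between A0 and A1 by the interaction test for 1873 genes. Of the genes named by the rule, 7 changed in opposite directions in the lines, each past the test, with log2 interactions of 2.08 for Pparg, 1.89 for Cdkn2c, 1.70 for Cpt1a, 1.61 for Dusp1, 0.461 for Tgfbr2, -0.588 for Rpn2 and -1.83 for Btg2. Their values by culture are given above except for Tgfbr2 and Rpn2, and their causes were not tested.

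A single A0 culture stood apart from the other 3 of its group by Dixon's criterion (the gap to the nearest culture as a fraction of the group's range) in 12 of 258 groups of 4 that were examined. For independent, normally distributed values about 1 in 20 groups would stand out, here 12.9. Many of these genes were chosen because their calls held without any 1 library, and the A0 cultures formed 2 sets. The rate is therefore only a rough guide, and whether the number differs from chance was not tested. Among the A0 exponential cultures the gaps were 0.896 for Kiaa0101 (culture 4 low), 0.881 for Sesn2 (culture 1 low), 0.832 for Msmo1 (culture 4 high), 0.853 for Rpn2 (culture 4 low), 0.874 for Dusp1 (culture 3 high) and 0.914 for Fn1 (culture 2 high). Among the A0 stationary cultures they were 0.900 for Ca3 (culture 3 high), 0.835 for Cnksr1 (culture 4 low), 0.854 for Loxl2 (culture 3 high), 0.844 for Acaca (culture 1 low), 0.868 for Lars (culture 1 high) and 0.859 for Slc6a9 (culture 4 low). The A1 groups have 3 cultures each and were not examined in this way.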

How the results depend on the processing

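Over 36 alternatives, the 133 named genes kept their direction in every fit, and 4400 of their values stayed past the threshold while 388 did not. The largest genes and those of the response classes had to pass in every fit without 1 library. These fits are among the alternatives, so that part of the count was fixed by the choice of genes and is no independent support. For 68 of the genes no alternative changed the call. The count of 1873 interaction genes was 2402 with DESeq2, 1633 with voom, 1870 with total counts as the only scaling, 2128 with filterByExpr, 2042 with no filter, 2359 with the first A0 libraries only and 1823 with A0 cultures 3 and 4. The share of higher genes, 56.4%, was 64.8% with total counts. The count of interaction genes was 4588 with A0 cultures 1 and 2 alone (2424 higher and 2164 lower, with 5846 phase genes in A1). With the CHO-S libraries in the fit it was 973 (592 higher and 381 lower). With the CHO-S groups but without the shallow library, chosen after seeing the data, it was 2487. Fits without 1 culture or library gave 570 to 2987 genes, 374 to 1662 higher and 196 to 1325 lower, and 1533 to 4231 phase genes in A1. Of the list counts, 1237 stayed within 1.5 times the count given above and 383 did not. The causes were not tested.

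Deviations from the group means of same-numbered exponential and stationary cultures correlated at 0.194 to 0.429 in A0 (other numbers -0.412 to 0.332) and at -0.18 to 0.172 in A1 (other numbers -0.206 to 0.299). The same number thus went with the higher correlation for A0 cultures 1 and 2 but not for A0 cultures 3 and 4. A0 exponential culture 3 correlated at 0.267 with stationary culture 3 and at 0.332 with stationary culture 4. A0 exponential culture 4 correlated at 0.194 with stationary culture 4 and at 0.269 with stationary culture 3. The numbers did not pair the samples in A1, and the fit of both lines was left without the block. With a replicate block by line and culture number 3435 genes were called (1870 higher, 1565 lower), and with a block by number alone 2979 (1652 and 1327). On simulated data these blocks gave 56 and 54 false calls against 10 without. No effect of culture was simulated, so these counts cannot tell whether the further calls with a block are false. The comparison of promoter motifs that had been planned was not run, because no promoter sequence was used here. Depth limits genes of few counts, and the 10536 genes of at least 5 CPM held 1669 of the calls.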

Other observations

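Genes induced by the peroxisome proliferator-activated receptors, which sense fatty acids, were listed after the values of Pparg and Cpt1a had been seen, so the counts are a description. Of 26 tested, 13 were higher for the interaction and 1, Cidec, was lower, and the median change was -0.18 in A0 and 0.36 in A1. The list shares its oxidation enzymes with the list of fatty acid oxidation. Beside the genes already described, the lipid droplet coats Plin2 (interaction 0.73) and Plin4 (1.18) and the acyl-CoA synthetase Acsl1 (0.62) were higher. Plin2 rose in both lines and more in A1, Plin4 rose in A1 alone, and Acsl1 fell in A0 and rose in A1. Among those not called were Lpl (0.22) and Cpt2 (-0.095). Relative to the mean of the A0 exponential cultures, the 18 members of at least 5 CPM stood at -0.19 to -0.058 in A0 stationary cultures and at 0.16, 0.52 and 0.41 in A1 stationary cultures 1, 2 and 3 (log2 scale). With A0 cultures 1 and 2 alone 15 members were higher and 2 lower, and with cultures 3 and 4 alone 12 and 1.

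Of the cell type markers, Cd68 changed with phase, from 2.32 to 3.33 CPM in A0 exponential to 17.3 to 67.7 CPM in A0 stationary cultures, and Csf1r was the only other leukocyte gene called for the interaction (-1.94, from at most 54 counts). A1 exponential culture 1 held 4 genes with at least 10 counts that had at most 3 in every other culture except A1 stationary culture 1. None of the 4 was called for the interaction by edgeR.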
